A study of Mus musculus with 6 samples.

Results

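The collagens described here are 10 genes that code for the chains of the main fibrillar, basement membrane and type VI collagens: Col1a1, Col1a2, Col3a1, Col5a1, Col5a2, Col4a1, Col4a2, Col6a1, Col6a2 and Col6a3. They were taken by gene symbol from the array's annotation, as 10 of 18193 genes with a probe set, and all 10 were among the 11526 genes bright enough to be tested. They had 19 probe sets (groups of short probes against one transcript), and each gene is given by its brightest one, with the others as a check for the 7 genes that had more than 1. The signals were measured in gastrocnemius, the large calf muscle, of male C57BL/6J mice that ate 1 of 3 diets for 15 weeks from 6 weeks of age. Fat supplied 10 kcal% of the Control diet and 60 kcal% of the high-fat diet, called HF. The third diet, HF+SFC+ALA, was the high-fat diet with 0.023% by weight of sodium ferrous citrate, an iron salt, and 0.2% of 5-aminolevulinic acid phosphate, a precursor of heme. Mice of every diet were taken at 4 h or 24 h of fasting, and RNA of a group was pooled before 1 array was run, so there were 6 pools and no replicate of any combination. The number of mice behind each pool is unknown here, and the labels state an age of 21 months that differs from 15 weeks of feeding from 6 weeks of age.

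Collagens are proteins of 3 chains wound into a triple helix. Type I collagen, made of Col1a1 and Col1a2 chains, and type III, made of Col3a1 chains, form the load-bearing fibrils of the connective tissue around muscle fibres. Type V collagen (Col5a1, Col5a2) starts fibrils and sets their width. Type IV collagen (Col4a1, Col4a2) is the network of the basement membrane that wraps each muscle fibre, capillary and adipocyte, and type VI (Col6a1, Col6a2, Col6a3) forms beaded filaments that join the basement membrane to the fibrils. In muscle most of these transcripts come from fibroblast-like cells rather than from the muscle fibres. In a bulk sample, fewer cells of a type and less RNA per cell cannot be told apart.

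Upstream sequences are shown for the 2 brightest fibrillar genes, and the bases between the 2 starts for the pair that shares a start region. RefSeq promoter windows (GRCm38.p6, from 250 bases before to 50 bases after the annotated start) were found for 8 of the 10 genes, and not for Col1a1 and Col5a2. The lines give the 250 bases before the start of Col1a2 (chr6:4505368-4505617, plus strand) and of Col3a1 (chr1:45311288-45311537, plus strand), and the 22 bases from the start of Col4a2 to that of Col4a1 (chr8:11312805-11312826, plus strand). Capitals mark matches on either strand to the CCAAT box (CCAAT), the GC box (GGGCGG) and the SMAD element (CAGAC), whose letters do not overlap here.
Col1a2: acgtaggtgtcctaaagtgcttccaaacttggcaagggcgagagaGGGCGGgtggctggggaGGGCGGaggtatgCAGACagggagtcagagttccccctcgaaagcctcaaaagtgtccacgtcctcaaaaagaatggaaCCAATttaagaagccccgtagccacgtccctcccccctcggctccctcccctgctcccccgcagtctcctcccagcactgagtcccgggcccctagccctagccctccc
Col3a1: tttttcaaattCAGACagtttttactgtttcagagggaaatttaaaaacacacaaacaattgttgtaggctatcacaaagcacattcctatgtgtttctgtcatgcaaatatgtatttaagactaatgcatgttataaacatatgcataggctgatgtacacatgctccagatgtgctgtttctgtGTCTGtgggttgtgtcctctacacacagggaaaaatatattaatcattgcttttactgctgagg
Col4a2 start to Col4a1 start: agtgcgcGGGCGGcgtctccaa
The CCAAT box was in the windows of 3 of the 8 genes (Col1a2, Col4a1, Col4a2) and in 37.4% of all 32851 windows. The GC box was in those of 5 of the 8 genes and in 35.7% of all windows. The SMAD element was in those of 6 of the 8 genes and in 49.6% of all windows. These shares count windows, and Col6a2 had an extra window. Counted by window, the CCAAT box was in 3 of 9, the GC box in 6 of 9 and the SMAD element in 6 of 9. The window of Col1a2 held all 3 motifs, with GC boxes centred 202 and 185 bases and a CCAAT box centred 107 bases before the start. A further CCAAT box, on the other strand, was centred 2 bases after the start, beyond the bases printed. The window of Col3a1 held the SMAD element alone. Col4a1 and Col4a2 lie head to head on chromosome 8 and are read in opposite directions, and their annotated starts are 21 bases apart. Each gene is read across the start of the other, so the bases between the starts are upstream of neither gene. The GC box among them was centred 12 bases after the start of Col4a1 and 10 bases after that of Col4a2. These matches describe the letters of the windows and are not measured binding sites.

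The fibrillar genes were bright and were highest in the HF pool at 4 h in every case. Signals are in MAS5 units on a linear scale, and levels are compared between pools and not between genes, because probe sets bind with different strength. At 4 h Col1a1 had signals of 968 (Control), 1883 (HF) and 1289 (HF+SFC+ALA), and at 24 h of 689, 1108 and 854 in the same order of diets. Col1a2 had 5695, 9557 and 7453 at 4 h and 5055, 8416 and 6027 at 24 h. Both chains of type I collagen thus stood in the order HF, HF+SFC+ALA, Control at each time, and the Col1a2 signal of all 4 high-fat pools exceeded that of both Control pools. Col3a1 had 4759, 7051 and 6350 at 4 h and 2651, 6456 and 4051 at 24 h. The Control pool at 24 h stood apart at the low end for this gene, while the HF pools stayed close to each other. Col5a1 had 595, 734 and 540 at 4 h and 296, 642 and 423 at 24 h. Col5a2 had 594, 998 and 888 at 4 h and 412, 796 and 592 at 24 h. For Col5a1 the HF+SFC+ALA pool at 4 h was the lowest of its time, whereas for Col5a2 it lay near the HF pool.

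The basement membrane genes varied less at 4 h. Col4a1 had 3356, 3840 and 4135 at 4 h and 2577, 4135 and 3131 at 24 h, in the order Control, HF, HF+SFC+ALA. Col4a2 had 1829, 1899 and 2101 at 4 h and 1206, 1758 and 1434 at 24 h. Both were highest in the HF+SFC+ALA pool at 4 h, and for Col4a2 every 24 h pool lay below every 4 h pool. Among the type VI genes, Col6a1 had 1397, 1709 and 1477 at 4 h and 1053, 1520 and 1366 at 24 h. Col6a2 had 2484, 3233 and 2744 at 4 h and 1454, 2647 and 1749 at 24 h. Col6a3 had 1692, 1782 and 1797 at 4 h and 882, 1980 and 1268 at 24 h. The 3 Col6a3 pools at 4 h were close together, and only after 24 h did the diets spread.

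**Figure D1:**
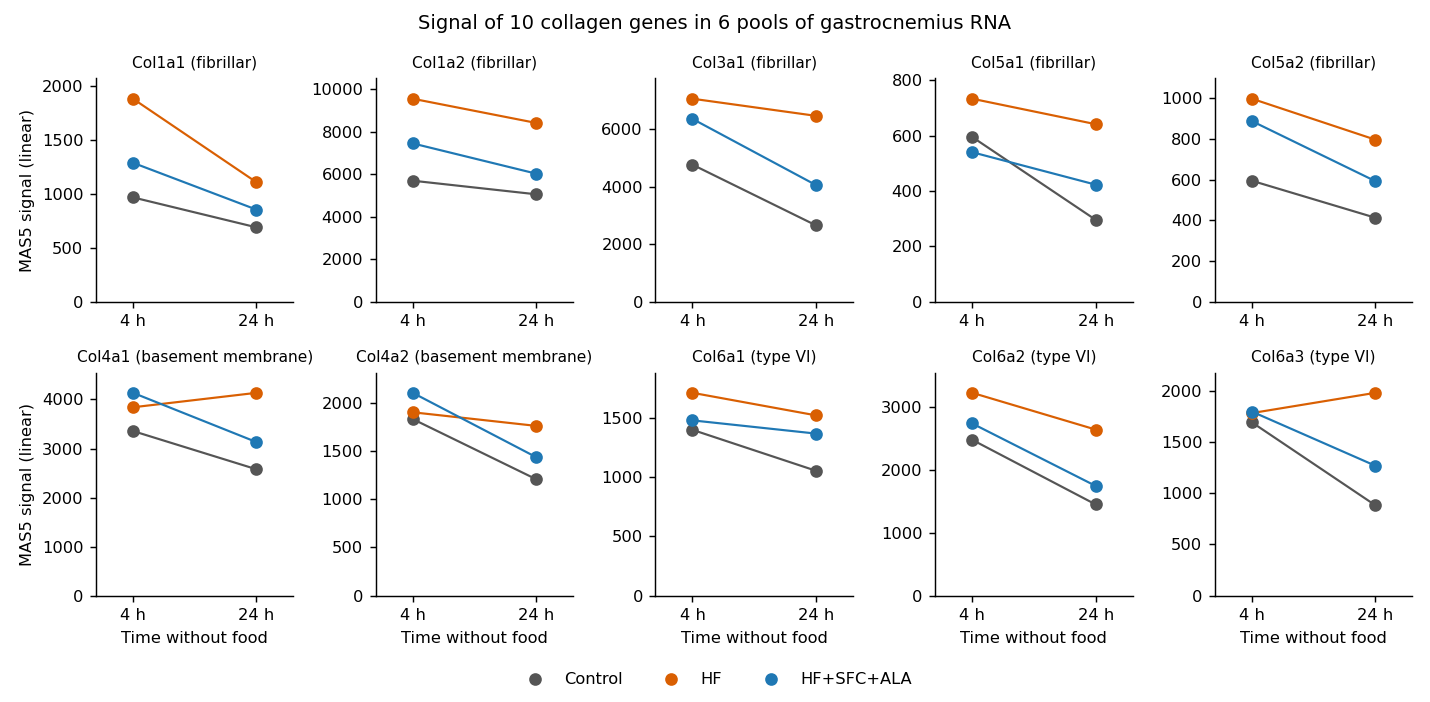
MAS5 signal (linear, each axis from 0) of the 10 collagens in the 6 pools, at 4 h and 24 h without food, coloured by diet; each point is 1 pool and lines join the pools of a diet. The Control pool at 24 h is the lowest point in all 10 panels, and the HF pool at 4 h is the highest in 7.

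Across the 6 pools the ratio of highest to lowest signal ran from 1.60 for Col4a1 to 2.73 for Col1a1. All 10 genes were lowest in the Control pool at 24 h, as were 21% of all genes tested. The HF pool at 4 h was the highest for 7 of the 10 and for 16.6% of all genes, the exceptions being Col4a1 and Col4a2 (HF+SFC+ALA at 4 h) and Col6a3 (HF at 24 h). At 24 h every one of the 10 had the HF+SFC+ALA pool between the Control and the HF pools, with HF highest, as did 21.5% of all genes. With 1 pool for each combination the spread around any one of these signals is unknown, so neighbours in the order cannot be separated by a test. The comparisons below therefore pool the diets or the times in one additive fit (limma), whose error is the residual spread around the 2 factors. P-values are adjusted over all 11526 genes by Benjamini-Hochberg with a threshold of 0.05. They rest on this residual spread of the pools, not on a spread between mice or between replicate pools. With 1 pool for each combination, the residual holds any interaction of diet and fasting time together with noise between pools, and the fit cannot separate them.

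High-fat feeding went with higher fibrillar collagen. In HF against Control, 4 of the 10 genes passed the test, all higher and all fibrillar, beside 0.564% of all genes called higher. Col3a1 was 1.90-fold higher (log2 difference 0.93 ± 0.14 SE, limma adjusted p = 0.0229). Col5a2 was 1.80-fold higher (0.85 ± 0.13, limma adjusted p = 0.0184). Col1a1 was 1.77-fold higher (0.82 ± 0.11, limma adjusted p = 0.0158) and Col1a2 1.67-fold higher (0.74 ± 0.08, limma adjusted p = 0.00652). The fifth fibrillar gene, Col5a1, had a difference of 0.71 ± 0.19 that did not pass (limma adjusted p = 0.152).

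The basement membrane and type VI genes did not pass this test, although all of their fitted differences were above 0, as were those of all 10 collagens and of 50% of all genes. Among the type VI chains Col6a2 had 0.62 ± 0.12 (limma adjusted p = 0.0537), Col6a3, the longest chain, 0.62 ± 0.20 (adjusted p = 0.214) and Col6a1 0.41 ± 0.11 (adjusted p = 0.141). Col4a1 had 0.44 ± 0.12 (limma adjusted p = 0.164) and Col4a2 0.30 ± 0.13 (adjusted p = 0.324). The median over the 10 was 0.67 on the log2 scale, whereas that of all genes tested was close to 0 (-0.000205). In 9 of the 10 genes both HF pools lay above both Control pools, as in 19.7% of all genes; for Col4a2 the HF pool at 24 h (1758) was below the Control pool at 4 h (1829).

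The HF and Control pools stood further apart after 24 h than after 4 h, HF being the higher, for 8 of the 10 genes; HF minus Control was the larger at 24 h in 51.3% of all genes. At 4 h the median log2 difference was 0.34, and 3 genes (Col1a1, Col1a2, Col5a2) were at least 1.5-fold higher in HF, beside 5.93% of all genes. At 24 h the median was 0.80 and 8 genes were at least 1.5-fold higher, beside 8.46% of all genes; Col4a2 (1.46-fold) and Col6a1 (1.44-fold) were the others. Col6a3 went from 1.05-fold at 4 h to 2.25-fold at 24 h, Col5a1 from 1.23-fold to 2.17-fold and Col3a1 from 1.48-fold to 2.44-fold. Type I collagen did not share this: Col1a2 was 1.68-fold and 1.67-fold higher, and Col1a1 1.95-fold and 1.61-fold. These are ratios of single pools, and the difference between the times was not tested.

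The other probe sets gave the same direction for HF against Control in all 7 genes that had one bright enough, from 0.23 to 1.22 on the log2 scale. The second Col1a2 probe set had 1.22 (limma adjusted p = 0.00184) and the second Col1a1 probe set 0.87 (adjusted p = 0.0261). The call was lost on the second probe sets of Col3a1 (1.12, adjusted p = 0.0519) and Col5a2 (0.50, adjusted p = 0.373). Leaving out single pools moved the count of 4: it was 9 when the 4 h Control pool was left out (2.91% of all genes called higher in that fit), 7 for the 4 h HF pool (1.53%) and 2 for the 24 h HF pool (0.2%), when Col3a1 (0.62, adjusted p = 0.0510) and Col5a2 (0.73, adjusted p = 0.119) no longer passed. It was 0 with all genes kept whatever their signal, with the mean over a gene's probe sets, without the intensity trend in the variance and without fasting time in the model; in these 4 fits between 0 and 1 gene of all was called higher.

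**Figure D2:**
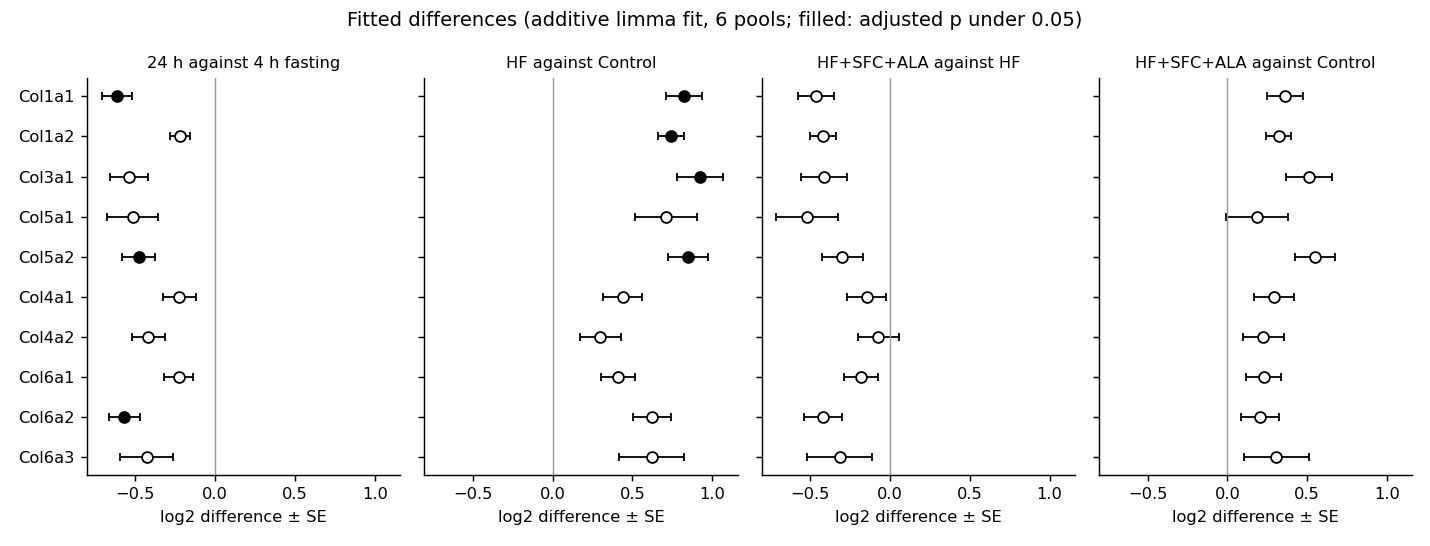
Fitted log2 differences (points) with standard errors (bars) of the 10 collagens in 4 contrasts of the additive limma fit over 6 pools; filled points have an adjusted p under 0.05. The filled points are Col1a1, Col1a2, Col3a1 and Col5a2 for HF against Control, and Col1a1, Col5a2 and Col6a2 for 24 h against 4 h; the contrasts with HF+SFC+ALA have none.

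The longer fast went with a lower signal of some collagens. In 24 h against 4 h, averaged over the diets, 3 of the 10 genes passed the test, all lower, beside 0.92% of all genes called lower. They were Col1a1 (-0.62 ± 0.09 on the log2 scale, limma adjusted p = 0.0129), Col6a2 (-0.57 ± 0.10, adjusted p = 0.0213) and Col5a2 (-0.48 ± 0.10, adjusted p = 0.0491). Col3a1 had -0.54 ± 0.12 and did not pass (limma adjusted p = 0.0506), and neither did Col4a2 with -0.42 ± 0.10 (adjusted p = 0.0742). The smallest differences were those of Col4a1 (-0.23 ± 0.10), Col6a1 (-0.23 ± 0.09) and Col1a2 (-0.22 ± 0.07), and Col5a1 (-0.52 ± 0.16) and Col6a3 (-0.43 ± 0.17) had the widest errors. The median over the 10 was -0.45, beside 0.00834 for all genes tested.

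The fasting difference was not alike in the 3 diets. In the Control pools all 10 genes were lower at 24 h (49.4% of all genes), with a median of -0.56, and 5 were at least 1.5-fold lower (6.13% of all genes). In HF+SFC+ALA all 10 were lower as well (50.1% of all genes), with a median of -0.53, and 3 (Col1a1, Col3a1, Col6a2) were at least 1.5-fold lower (3.83% of all genes). In HF the median was -0.18, and Col1a1 alone was at least 1.5-fold lower (4.42% of all genes). Of the 3 diets, HF had the highest value of 24 h minus 4 h for 7 genes, beside 36.9% of all genes. Among the Control values the lowest were those of Col5a1 (-1.01), of Col6a3 (-0.94) and of Col3a1 (-0.84), whose HF values were -0.19, 0.15 and -0.13. Col1a1 had its largest fall in HF (-0.77, against -0.49 in Control). In 8 genes the 24 h pool was below the 4 h pool in every diet, as in 18.3% of all genes; Col4a1 (0.11) and Col6a3 (0.15) were above it in HF. Only for Col4a2 did all 24 h pools lie below all 4 h pools, as in 8.36% of all genes. Each diet has 1 pool per time, so the difference between diets could not be tested.

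The fasting calls were sensitive to single pools. Leaving out the 24 h HF pool let 7 genes pass (1.15% of all genes called lower in that fit) and leaving out the 4 h one 6 (1.07%), whereas 0 passed without either HF+SFC+ALA pool (0.217% in each). The other probe sets were lower at 24 h in all 7 genes with one, from -0.58 to -0.29, but those of Col1a1 (-0.32, limma adjusted p = 0.195), Col5a2 (-0.29, adjusted p = 0.508) and Col6a2 (-0.41, adjusted p = 0.0910) did not pass, and that of Col1a2 did (-0.49, adjusted p = 0.0129). The count was also 0 under the 4 settings that left 0 for HF against Control, with diet in place of fasting time as the factor left out. Of all genes, 0% were called lower with no filter and without the variance trend. The share was 0.0582% with the mean over probe sets and 0.26% with diet left out.

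**Figure D3:**
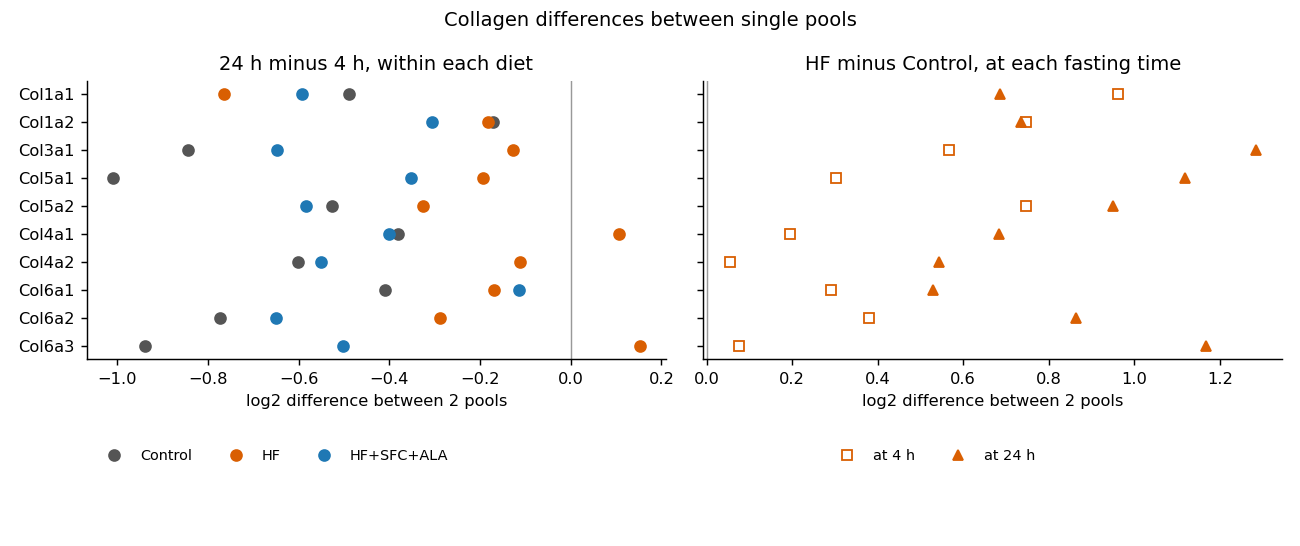
Log2 differences between single pools for the 10 collagens: 24 h minus 4 h within each diet (left) and HF minus Control at each fasting time (right); each point is 1 pair of pools and carries no error. In the left panel the HF points lie nearest 0 or to the right of it for most genes. In the right panel the 24 h points lie to the right of the 4 h points for 8 of 10.

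Adding sodium ferrous citrate and 5-aminolevulinic acid to the high-fat diet went with lower values that did not pass the test. In HF+SFC+ALA against HF no collagen and 0% of all genes passed; 585 of all genes had an unadjusted p under 0.05, and 6 of the 10 collagens had one with a lower value, as had 2.87% of all genes. The fitted difference was below 0 for all 10 and for 51.3% of all genes, with a median of -0.36 beside -0.00485 for all genes. Col5a1 had -0.52 ± 0.19 (limma adjusted p = 0.889), Col1a1 -0.46 ± 0.11 (adjusted p = 0.498) and Col1a2 -0.42 ± 0.08 (adjusted p = 0.213). The basement membrane genes were closest to 0, with -0.15 ± 0.12 for Col4a1 and -0.07 ± 0.13 for Col4a2. Both HF+SFC+ALA pools lay below both HF pools for 4 genes (Col1a2, Col3a1, Col5a1, Col6a1), as for 15.8% of all genes.

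At 4 h the supplemented pool was below the HF pool for 7 genes (49.8% of all genes), with a median of -0.19, and 0 genes were at least 1.5-fold lower (4.06% of all genes); Col4a1, Col4a2 and Col6a3 were at 0.11, 0.15 and 0.01. At 24 h it was below for all 10 (52.8% of all genes), with a median of -0.45, and Col3a1, Col5a1, Col6a2 and Col6a3 were at least 1.5-fold lower (4.46% of all genes). The largest of these was Col3a1, at -0.67 on the log2 scale. The second probe set of Col1a2 passed the test (-0.68, limma adjusted p = 0.0491), and 4 collagens passed, all lower, without the 4 h Control pool (0.521% of all genes called lower) and 4 without the 24 h one (0.564%). All 7 other probe sets had values below 0.

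Against Control, HF+SFC+ALA had fitted differences above 0 in all 10 genes and in 48.3% of all genes, with a median of 0.30, and none passed, beside 0.0347% of all genes called higher (4 genes); 5 of the 10 collagens were higher with an unadjusted p under 0.05, as were 5.92% of all genes. The highest were Col5a2 (0.55 ± 0.13, limma adjusted p = 0.184) and Col3a1 (0.51 ± 0.14, adjusted p = 0.243), and the lowest was Col5a1 (0.19 ± 0.19). At 24 h only Col3a1 was at least 1.5-fold higher than Control (5.66% of all genes). All 4 high-fat pools lay above both Control pools for Col1a2 alone, as for 10.4% of all genes. Leaving out the 4 h Control pool let 3 collagens pass (2.18% of all genes called higher in that fit), and leaving out the 4 h HF pool (0.521%) or the 24 h one (0.503%) let 1 pass. The 3 diet contrasts share pools: the HF pools enter 2 of them and the Control pools 2, so a high HF pool or a low Control pool moves more than 1 contrast.

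The collagens were also compared with one another by the root mean square difference between their log2 signals, each centred on its mean over the 6 pools, where 0 means the same pattern. Of the 45 pairs the closest were Col4a1 with Col4a2 (0.114), Col4a1 with Col6a1 (0.118) and Col3a1 with Col5a2 (0.119), and the farthest was Col1a1 with Col4a1 (0.309). Col4a1 and Col4a2, Col3a1 and Col5a2, and Col6a1 and Col6a2 are neighbours on chromosomes 8, 1 and 10 with 0 protein-coding genes between them. Col6a1 and Col6a2 were not close (0.218). The chains of one protein were not always the closest either: Col1a1 and Col1a2, which assemble together, were at 0.211 and ranked 22 of the 45 pairs. With 6 pools and 2 factors shared by every gene these are descriptions without a test.

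By type, the centred profiles shared their low point, in the Control pool at 24 h; the fibrillar and type VI means peaked in the 4 h HF pool, and the basement membrane mean peaked in the 4 h HF+SFC+ALA pool. The fibrillar mean was -0.09, 0.57 and 0.24 at 4 h and -0.70, 0.25 and -0.26 at 24 h, in the order Control, HF, HF+SFC+ALA. The type VI mean was 0.09, 0.34 and 0.19 at 4 h and -0.62, 0.23 and -0.23 at 24 h. The basement membrane mean was 0.04, 0.16 and 0.29 at 4 h and -0.45, 0.16 and -0.19 at 24 h. The types were farthest apart in the HF pool at 4 h, and closest in the HF and HF+SFC+ALA pools at 24 h.

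**Figure D4:**
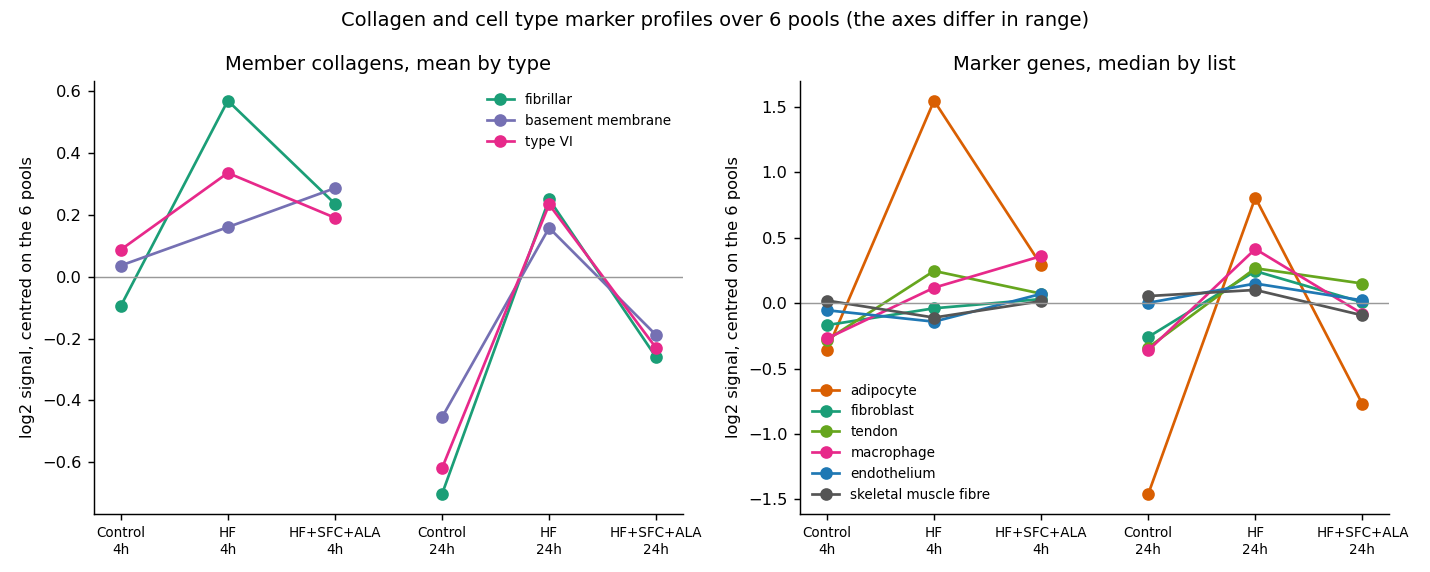
Log2 signal centred on the mean of the 6 pools: mean by collagen type (left) and median by list of cell type markers (right); lines join the pools of one fasting time, and the axes differ in range. The collagens reach their low point in the Control pool at 24 h (fibrillar -0.70), as does the adipocyte list (-1.46), while the skeletal muscle list runs from -0.11 to 0.10.

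Markers of other cells moved with the diets. The muscle fibre markers were strong in every pool, with a summed signal of 410483 to 481601 over all 10 of 10, and none passed the test in any contrast. Their directions were often shared, with 0 of the 10 higher in HF than in Control at 4 h and 7 at 24 h. In HF+SFC+ALA 0 of the 10 were below HF at 4 h and all 10 at 24 h. The 24 h pool was below the 4 h pool for 3 of them in Control, 0 in HF and all 10 in HF+SFC+ALA. Of 8 adipocyte markers 5 had a probe set with 1 symbol. All 5 were higher in HF than in Control and lower in HF+SFC+ALA than in HF at both times, and 3 passed the test for HF against Control. Adipoq, the fat cell hormone adiponectin, had 901, 4637 and 1941 at 4 h and 577, 4280 and 796 at 24 h in the order Control, HF, HF+SFC+ALA. Lep, which encodes leptin, had 45.8, 592 and 195 at 4 h and 19.5, 366 and 70.4 at 24 h, the value of 19.5 being under the floor of 26.4. The summed adipocyte signal, most of it from Fabp4, was 22938 to 26925 in the Control pools, 32800 to 37023 in the HF pools and 28691 to 29086 in the HF+SFC+ALA pools. So the order of the diets was that of the collagens at 24 h, and the part of adipose tissue in the collagen differences was not tested.

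The summed signals of the tendon, macrophage, fibroblast, Schwann cell and red blood cell markers were higher in both HF pools than in both Control pools. Those of the smooth muscle and pericyte and of the endothelial markers were not. The tendon sum (6 of 6 measured) was 10785 to 11337 with Control feeding, 15308 to 17191 with HF and 15354 to 15481 with HF+SFC+ALA, with 3 genes called higher in HF; Mkx was lower in HF at both times (79.8 against 78.5 at 4 h, 59.4 against 51.3 at 24 h, Control first). The macrophage sum (8 of 8 measured) was 2220 to 2368 with Control feeding, 3237 to 3586 with HF and 2643 to 3502 with HF+SFC+ALA; all 8 genes were higher in HF at both times, 0 were called for diet and 1 was called lower at 24 h. The fibroblast sum (8 of 9 measured) was 23288 to 25304 with Control feeding, 26193 to 28501 with HF and 25029 to 26640 with HF+SFC+ALA. Of these genes 6 at 4 h and 8 at 24 h were higher in HF than in Control, and 1 was called higher. Smooth muscle and pericyte markers (8 of 8 measured, sums of 58826 to 68367) had 1 gene called higher in HF and 2 called lower at 24 h, and 0 of 7 endothelial markers (sums of 5238 to 6063) passed in any contrast. The Schwann cell sum (4 of 6 measured) was 4945 to 5151 with Control feeding, 6076.5 to 6222 with HF and 4370 to 4481 with HF+SFC+ALA. Of 5 red blood cell genes 3 were measured and 1 was bright enough to test, with Hba-a1 at 1.47 to 26.7. Their sum was 152 to 161 with Control feeding, 233 to 274 with HF and 173 to 217 with HF+SFC+ALA. The 3' to 5' ratio of the actin control probes, which rises as RNA degrades, was 1.52 in the HF pool at 4 h and 1.08 to 1.22 in the others. That of the Gapdh control probes was 0.832 in the HF pool at 4 h and 0.814 to 0.863 in the others. Without the 4 h HF pool, which leaves HF with its 24 h pool alone, the median collagen difference in HF against Control was 0.80. It was 0.67 with that pool. The part of RNA quality and of these other cells in the collagen differences was not tested.

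Among 34 other collagens, 19 were bright enough to test, and 2 rose in HF against Control while 17 did not pass, with a median of 0.26. Col12a1, which decorates type I fibrils, had signals of 241, 553 and 423 at 4 h and 243, 529 and 404 at 24 h, in the order Control, HF, HF+SFC+ALA. It was 2.23-fold higher in HF (1.16 ± 0.15, limma adjusted p = 0.0125). Col8a1, a short-chain collagen of vessel walls, had 236, 399 and 362 at 4 h and 196, 556 and 384 at 24 h, and was 2.19-fold higher (1.13 ± 0.20, limma adjusted p = 0.0381). For both genes all high-fat pools lay above both Control pools. None of the 19 passed for fasting (median -0.03), so the fasting calls within the collagens tested were those of Col1a1, Col5a2 and Col6a2.

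Of 20 genes that fold and modify procollagen chains 19 had a probe set and 17 were bright enough to test. Serpinh1, the collagen chaperone HSP47 of the endoplasmic reticulum, had 1831, 2161 and 2196 at 4 h and 822, 1629 and 1181 at 24 h. Every 24 h pool of Serpinh1 was below every 4 h pool, and the fitted fall was -0.82 ± 0.13 (limma adjusted p = 0.0145), the one call of this list for fasting. In HF against Control 0 of the 17 passed and the median was 0.14, with Serpinh1 at 0.61 ± 0.16 (adjusted p = 0.125).

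Of 13 genes for cleavage of propeptides and for cross-linking 10 had a probe set and 6 were bright enough to test, and 0 passed in any contrast. In HF against Control all 6 had values above 0, with a median of 0.48. Pcolce, which enhances removal of the C-terminal propeptide, had 1967, 2308 and 2283 at 4 h and 1250, 2228 and 1702 at 24 h (HF against Control 0.53 ± 0.13, limma adjusted p = 0.124). Lox, lysyl oxidase, which cross-links fibrils, had 368, 664 and 583 at 4 h and 455, 565 and 525 at 24 h (0.58 ± 0.16, limma adjusted p = 0.158). Both genes were higher in each HF pool than in the Control pool of its time, but Lox was not lower in Control after the longer fast.

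Of 17 basement membrane partners 14 were tested. Sparc, a collagen-binding matrix protein, rose in HF (0.63 ± 0.08, limma adjusted p = 0.0125), from 7975 to 12554 at 4 h and from 6921 to 10570 at 24 h, with HF+SFC+ALA at 9804 and 7420. The other 13, laminins, nidogens and perlecan among them, did not pass, and the median was 0.18. Of 13 genes of collagen breakdown 10 were tested and 0 passed in any contrast (HF against Control median 0.21). Timp1, an inhibitor of matrix metalloproteinases, had 163, 194 and 158 at 4 h and 76.1, 170 and 84.2 at 24 h, and Mmp9, a gelatinase, 71.8, 71.4 and 105 at 4 h and 158, 67.8 and 54.1 at 24 h. Mmp9 thus did not follow the collagens, since its highest pool was the Control pool at 24 h.

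Collagen receptors were tested for 8 of 12, and 0 passed in any contrast. All 8 had values above 0 in HF against Control, with a median of 0.14; Cspg4, the NG2 proteoglycan that binds type VI collagen, had 0.55 ± 0.21 (limma adjusted p = 0.270) and Itga1, a subunit of a collagen-binding integrin, 0.44 ± 0.19 (adjusted p = 0.326). Genes of the TGF-beta pathway, a known inducer of collagen transcription, were tested for 17 of 19, and 0 passed for HF against Control (median 0.02). For fasting Smad3, which carries the TGF-beta signal to the nucleus, fell by 0.77 ± 0.11 on the log2 scale (limma adjusted p = 0.0129), from 4816, 3170 and 3547 at 4 h to 2159, 2236 and 2270 at 24 h. Tgfbr3, the co-receptor betaglycan, rose (0.34 ± 0.07, limma adjusted p = 0.0491), from 1638, 1621 and 1598 to 2107, 2045 and 2014. In both genes the 24 h pools were close together in all diets, unlike the collagens, whose diets spread at 24 h. For HF+SFC+ALA against HF and against Control, 0 genes of any of these 7 lists passed the test.

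**Figure D5:**
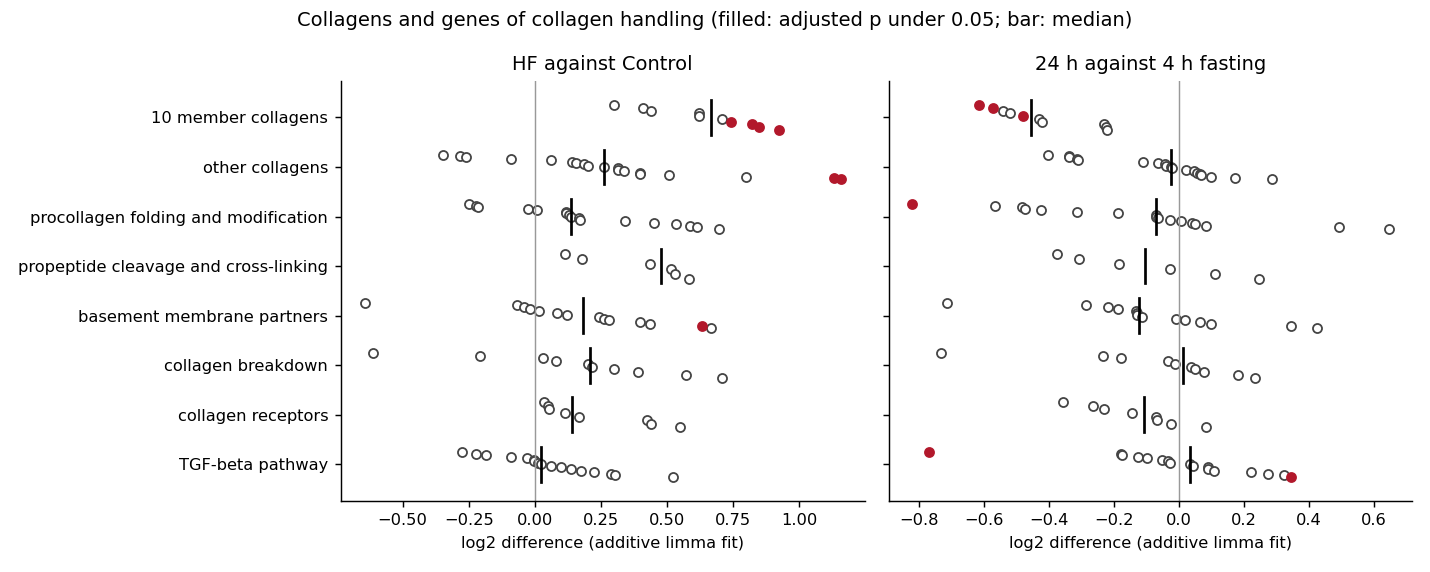
Fitted log2 differences (additive limma fit) of the 10 collagens and of 7 lists of genes of collagen handling, for HF against Control (left) and 24 h against 4 h (right); each point is a gene, filled where the adjusted p is under 0.05, and the bar is the median of the list. The collagens have medians of 0.67 and -0.45, and the TGF-beta pathway has 0.02 and 0.04.

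The genes outside the 10 whose pattern over the 6 pools was most like the mean pattern of the collagens were Pcolce (root mean square difference 0.0709 on the log2 scale), Gpx8 (0.0723), 4930579G18Rik (0.0732), Il15ra (0.0761), Nme1 (0.0799), St8sia5 (0.0821), Tnfrsf12a (0.0843) and Olfm1 (0.0849). The nearest, Pcolce, is also the one of the 8 that belongs to the collagen lists. Gpx8, a peroxidase of the endoplasmic reticulum, had 260, 356 and 329 at 4 h and 163, 326 and 250 at 24 h. Il15ra, a receptor chain for interleukin 15, had 313, 428 and 378 at 4 h and 190, 337 and 284 at 24 h. The collagens themselves ranked from 9 (Col6a2) to 213 (Col1a1) among all genes by this measure, although they enter the mean they were compared with. None of the 8 passed the test for HF against Control or for fasting.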

How the data were processed

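RNA pooled within each of 6 groups was hybridised to 1 expression array per group. The deposited table holds linear intensity values, and the submitters' processing notes name MAS5 with no version or setting. The mean of each array after trimming its extremes was 500.004, so levels are relative to each array's total, and median signals were 62.98 to 69.5. Of 45037 non-control probe sets 34945 had 1 gene symbol, 932 several and 9160 none, and symbols were updated by gene identifier for 34741.

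The brightest probe set stood for each gene. Genes whose mean log2 signal exceeded the median over probe sets (5.88) were kept, and a floor at the 30th percentile of signal (26.4) was applied before log2. Diet and fasting time were fitted additively with limma 3.58.1 in R 4.3.3 (lmFit, eBayes with trend; 2 residual and 7.27 prior degrees of freedom). The fit was tested on simulated data with independent errors and a shift in the HF pools, and no interaction was simulated. With 1 array per combination the number of arrays limits the precision, and no interaction could be fitted. Named genes were all 10 collagens; in each list those past the threshold in any contrast with the same sign in every pair of pools (at most 4 per contrast), or else the 2 with the largest HF against Control difference; and the 8 most similar others. Counts at 1.5-fold carry no test. Alternatives changed the normalization, filter, floor, probe set, variance trend, model and pools. The collagens, the gene lists and the tests were chosen with earlier results of these data known. Figures were drawn with matplotlib 3.10.9 from tables made with pandas 2.3.3 in Python 3.11.15.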

Additional observations from a re-analysis of the deposited data

Results flagged for a closer look

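Col4a1 and Col6a3 were higher at 24 h than at 4 h in the HF pools and lower in the Control pools. The log2 difference of Col4a1 was 0.11 in HF, against -0.38 in Control and -0.40 in HF+SFC+ALA, and that of Col6a3 was 0.15 in HF, against -0.94 in Control and -0.50 in HF+SFC+ALA. Each value compares 2 single pools, and the difference between the diets was not tested.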

How the results depend on the processing

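Every fitted median over the 10 collagens kept its sign under all alternatives tried. Quantile normalization, no floor, a pseudocount in place of the floor and a filter at the 65th percentile kept each count of calls within 1.5 times. The counts for fasting and for HF against Control, 3 and 4, were both 0 with no filter, with the mean over probe sets, without the variance trend and with the other factor left out. In these fits 0% to 0.26% of all genes were called lower for fasting and 0% to 0.0097% higher for HF against Control. The cause was not tested. Leaving out each pool in turn, where the lone pool of a diet is assumed to vary like the others, gave 0 to 7 calls for fasting, 2 to 9 for HF against Control, 0 to 4 for HF+SFC+ALA against HF and 0 to 3 against Control.

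The medians then ran from -0.57 to -0.30 for fasting, from 0.41 to 0.80 for HF against Control, from -0.43 to -0.16 for HF+SFC+ALA against HF and from 0.13 to 0.38 against Control. Of the single values 498 kept direction and side of the threshold, 45 lost and 37 gained the call, and 8 changed sign, none of them called in either fit. Col1a2 for fasting was 0.040 with the mean over probe sets, one of which is dim (18.9 to 64.7). Col5a1 in HF+SFC+ALA against Control was -0.27 on its second probe set. Leaving out each pool gave ranges across 0 for Col4a1 (-0.40 to 0.10, HF+SFC+ALA against HF), Col4a2 (-0.31 to 0.16, HF+SFC+ALA against HF), Col6a3 (-0.75 to 0.12, HF+SFC+ALA against HF), Col5a1 (-0.18 to 0.56, HF+SFC+ALA against Control) and Col6a3 (-0.077 to 0.69, HF+SFC+ALA against Control).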
